A study of Mus musculus with 12 samples.

Results

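The let-7d-5p mimic was set against a negative control in cultured mouse white adipocytes, and the response was read across every gene of the count table. The comparison takes the 8 libraries whose labels give these treatments, 4 of each, out of 12, and the other 4 libraries received a let-7e-5p mimic. All cells came from wild-type male C57BL/6 mice, 8 weeks old and fed chow. Cells of the stromal vascular fraction of epididymal fat, which is the tissue without its mature fat cells, were induced with rosiglitazone at 1 µM, insulin at 850 nM, dexamethasone at 1 µM and IBMX at 250 µM, and later held in rosiglitazone and insulin. On day 4 the cultures were reverse transfected with Lipofectamine RNAiMAX, and on day 7 they were harvested. The control cells therefore carry the same drugs, transfection reagent and handling as the let-7d cells. A mimic is a synthetic duplex that adds to the microRNA a cell makes itself, and its level in the cells was not analysed here.

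MicroRNAs of the let-7 family load into Argonaute proteins and find messages mainly through the seed, bases 2 to 8 from the 5′ end. Messages that pair with a seed, most often in the 3′ untranslated region (3′ UTR), lose their poly(A) tail and decay or are translated less. The family is known for holding back growth programmes of embryonic and dividing cells, and in metabolic tissue for a part in glucose handling. The mature sequences of both mimicked microRNAs are shown because the seed sets which messages can pair, and capitals mark it.
mmu-let-7d-5p: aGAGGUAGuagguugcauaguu
mmu-let-7e-5p: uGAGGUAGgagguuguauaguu
Both were taken from RefSeq (GRCm38.p6), where the mature let-7d-5p lies at chr13:48536078-48536099 on the minus strand and let-7e-5p at chr17:17830366-17830387 on the plus strand. Counted from 1 at the 5′ end and with the base of let-7d first, they differ by A1U, U9G and C16U and share the seed. A message can pair with this seed where it holds CTACCTCA (8mer: the match to bases 2 to 8 followed by A), CTACCTC (7mer-m8: the match alone) or TACCTCA (7mer-A1: the match to bases 2 to 7 followed by A).

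The 8 libraries held 15071299 to 26308369 counts. Their sample identifiers come in 2 series (ID runs): replicates 1 and 2 belong to the first run and replicates 3 and 4 to the second run. The first principal component separated the runs (81.9% of the variance), and the labels do not say what they are. Of the 20 adipocyte markers 19 were measured, and their summed level in CPM (counts scaled to a common library total) was 25858 to 28130 in the first run and 5745 to 8069 CPM in the second run. Adipoq, the fat cell hormone adiponectin, was at 1472, 1497, 521 and 336 CPM in control replicates 1 to 4 and at 1425, 1466, 392 and 357 CPM in let-7d replicates 1 to 4, so both treatments hold fat cells in both runs and fewer fat cell messages in the second run. The summed level of 18 macrophage markers was 391 to 415 CPM in the 4 libraries of the first run; in the second run it was 53.8 and 37.9 CPM in the controls and 187 and 84.2 CPM with let-7d. Smooth muscle and pericyte markers summed to 5728, 4562, 7680 and 8038 CPM in the controls and to 4240, 4078, 6085 and 6667 CPM with let-7d. Endothelial markers stood at 442 to 592 CPM in the controls and 431 to 563 CPM with let-7d, mesothelial markers at 114 to 131 and 115 to 141 CPM, Schwann cell markers at 272 to 402 and 283 to 382 CPM, and fibroblast and preadipocyte markers at 3442 to 5554 and 3481 to 4620 CPM. Of 14 lymphocyte markers 1 was in the table, and of 15 neutrophil and mast cell markers 5, at 7.73 to 17.9 CPM in sum. In bulk RNA, fewer cells of a type and less RNA per cell cannot be told apart.

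With the let-7d mimic 1010 genes rose and 1545 fell of 15754 tested, which is 6.41% and 9.81% of them, and 16.2% together (edgeR adjusted p under 0.05). Most of the changes were small. The median log2 fold change was 0.34 among the genes that rose, -0.30 among those that fell and -0.0022 over all genes, and 63 genes rose and 66 fell by 2-fold or more. In 2506 of the 2555 called genes all 4 let-7d libraries lay on the same side of their own run's control mean, and 2544 had the same sign in both runs. The genes were called from these same libraries, so both counts follow in part from the selection and are no separate replication. Rises made up 39.5% of the calls under the TMM scaling used here and 50.2% under upper-quartile scaling (1267 rose and 1257 fell), so the balance of rises to falls follows the scaling. Without a term for the run, 2 genes rose and 5 fell. Of 1183 long noncoding RNAs 58 rose and 15 fell, both smaller shares than over all genes. Strand is not stated for the counts, so the values of genes that overlap another tested gene are uncertain; among those named below these are Acvr2a, Adamts4, Adamts9, C2, Cbx7, Ccl6, Cebpb, Col4a2, Ctsa, Dhx58, Efnb2, Eif4a2, Ext2, Has2, Hexa, Igf2r, Il16, Mmp12, Mt2, Nphs1, Pcdh7, Plxna4, Ptger4, Rgma, Rps6kb1, Rps6kb2, Slc35a4 and Thra.

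**Figure D1:**
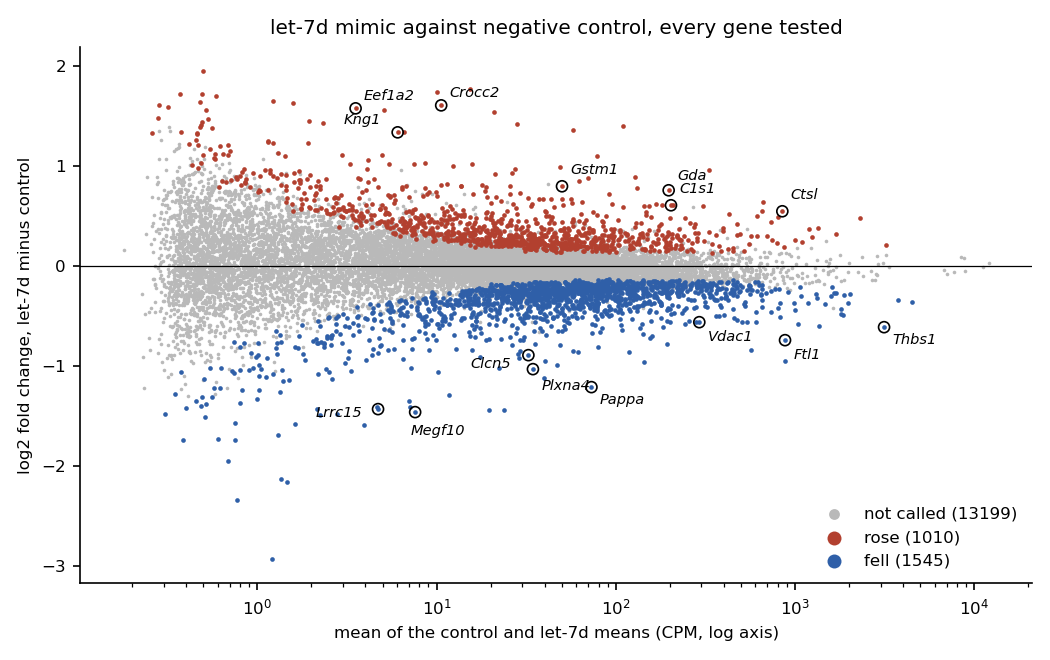
Log2 fold change (let-7d minus control) of each of 15754 genes against its mean level in CPM on a log axis. Red points rose (1010), blue points fell (1545) and grey points were not called; circled genes are named in the text, and most called points lie within 1 log2 unit of 0.

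Eef1a2, the translation elongation factor otherwise typical of muscle and neurons (chromosome 2, 181147653 to 181157014, GRCm38), was at 3.35, 3.41, 0.601 and 0.286 CPM in the controls and 8.16, 8.12, 2.23 and 2.09 CPM with let-7d, given in the order of replicates 1 to 4 here and below. Within each run both let-7d libraries exceeded both controls, and the log2 fold change was 1.58 ± 0.19 (SE; edgeR adjusted p = 6.80e-05). Kng1, the kininogen from which bradykinin is cut, was at 4.01, 3.96, 3.83 and 2.13 CPM in the controls and 9.09, 6.90, 11.1 and 7.46 CPM with let-7d (1.34 ± 0.20, adjusted p = 0.000352), and its groups did not overlap; reads of a near-identical kininogen copy may be mixed in. Serpinb8, an intracellular serine protease inhibitor (chromosome 1, 107590006 to 107610484), was at 8.21, 8.00, 3.76 and 2.99 CPM in the controls and 14.9, 15.8, 8.09 and 7.18 CPM with let-7d. It rose by 1.03 ± 0.096 on the log2 scale (adjusted p = 7.66e-06), with 0.93 in the first run and 1.19 in the second run. Slpi, a secreted inhibitor of leukocyte proteases, rose by 1.11 ± 0.18 and Gfra4, a receptor of the glial cell line-derived neurotrophic factor family, by 1.11 ± 0.13, each with all 4 let-7d libraries above all 4 controls. Crocc2, a relative of the ciliary rootlet protein rootletin, rose by 1.61 ± 0.25, 1.16 in the first run and 2.37 in the second run.

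Some of the largest rises lay in genes known from macrophages. Mmp12, the macrophage elastase, was at 152, 168, 9.62 and 3.89 CPM in the controls and 248, 198, 73.5 and 23.6 CPM with let-7d. Its log2 fold change was 1.40 ± 0.40 (adjusted p = 0.0270), 0.48 in the first run and 2.85 in the second run. The call was lost when control replicate 3, control replicate 4 or let-7d replicate 3 was left out, and the log2 fold change was then 0.86 at its lowest. Ccl6, a chemokine of myeloid cells, was at 35.0, 30.2, 5.56 and 2.45 CPM in the controls and 51.4, 48.5, 38.0 and 13 CPM with let-7d (1.42 ± 0.38), and Wfdc17, a small secreted protein of macrophages, at 4.77, 3.27, 1.73 and 1.02 CPM in the controls and 9.55, 8.94, 8.81 and 2.53 CPM with let-7d (1.56 ± 0.31). Atp6v0d2, a subunit of the proton pump in macrophages and osteoclasts, rose by 1.34 ± 0.29, 0.97 and 1.99 in the runs. Macrophage markers moved with these genes in the second run, as given above. Of the 18 markers 4 rose (22.2%, against 6.41% of all genes) and none fell. None was called when control replicate 3, control replicate 4 or let-7d replicate 3 was left out. Called markers numbered 1 without let-7d replicate 1 and 2 without control replicate 1 or let-7d replicate 2. Their part in these changes was not tested. In the first run, where the summed macrophage markers of controls (411 and 406 CPM) and let-7d (415 and 391 CPM) lay close but 5 of the 18 fell and none rose in a fit of that run alone, these 4 genes stood at 0.48 ± 0.16, 0.61 ± 0.17, 1.17 ± 0.22 and 0.97 ± 0.17.

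Both pappalysins were among the largest falls. Pappa and Pappa2 encode proteases that free insulin-like growth factors from their binding proteins. Pappa (chromosome 4, 65124174 to 65357509) was at 78.5, 76.2, 100 and 154 CPM in the controls and 36.8, 32.0, 47.8 and 59.5 CPM with let-7d, and the groups did not overlap. Pappa2 stood lower, at 2.22, 3.06, 4.32 and 3.68 CPM in the controls and 0.332, 1.04, 1.36 and 1.89 CPM with let-7d (-1.49 ± 0.23, adjusted p = 0.000405), also with no overlap. Lrrc15, a membrane protein of matrix-producing fibroblasts (chromosome 16, 30269302 to 30283256), was at 11.6, 9.18, 2.52 and 3.80 CPM in the controls and 4.58, 4.17, 0.870 and 0.963 CPM with let-7d (-1.43 ± 0.20, adjusted p = 0.000157), below both controls in each run. Crtac1, a cartilage matrix protein, changed by -1.59 ± 0.27, Nphs1, the slit diaphragm protein nephrin, changed by -1.43 ± 0.20, Mgam, a maltase, by -1.35 ± 0.19 and Nkain3, a protein that binds the sodium pump, by -1.06 ± 0.17. The summed smooth muscle markers given above were lower with let-7d in both runs, and their part in the falls of contractile and matrix genes was not tested.

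Gda, Clcn5, Vdac1 and Wipi1 were among the 10 named genes with the smallest p-values. Gda, guanine deaminase (chromosome 19, 21391307 to 21473445), was at 123, 129, 176 and 159 CPM in the controls and 206, 220, 299 and 265 CPM with let-7d. It rose by 0.76 ± 0.063 (adjusted p = 4.60e-06), with no overlap and 0.77 in either run. Clcn5, an exchanger of chloride and protons in endosomes (chromosome X, 7153810 to 7319358), was at 45.4, 47.4, 36.5 and 39.6 CPM in the controls and 23.0, 23.4, 21.9 and 22.3 CPM with let-7d. It changed by -0.89 ± 0.066 (adjusted p = 4.60e-06), again with no overlap. Vdac1, the main channel of the outer mitochondrial membrane, went from 349 ± 29.6 to 235 ± 3.58 CPM (SD, n = 4 each; -0.56 ± 0.049), and all 4 let-7d libraries lay between 231 and 240 CPM. Wipi1, which binds early autophagosome membranes, changed by -0.53 ± 0.043 and Map3k3, a kinase upstream of MAP kinases, by -0.50 ± 0.048. Among the most abundant called genes Thbs1, the matrix protein thrombospondin 1, went from 3784 ± 552 to 2487 ± 345 CPM (-0.61 ± 0.072) with no overlap. Fstl1, a secreted glycoprotein, went from 2231 ± 554 to 1738 ± 486 CPM (-0.37 ± 0.052), and B2m, the light chain of MHC class I, from 1966 ± 1014 to 2636 ± 995 CPM (0.48 ± 0.099). Actb went from 5039 ± 1079 to 3929 ± 792 CPM (-0.36 ± 0.062), but actin genes and their copies share sequence, so its value is uncertain.

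**Figure D2:**
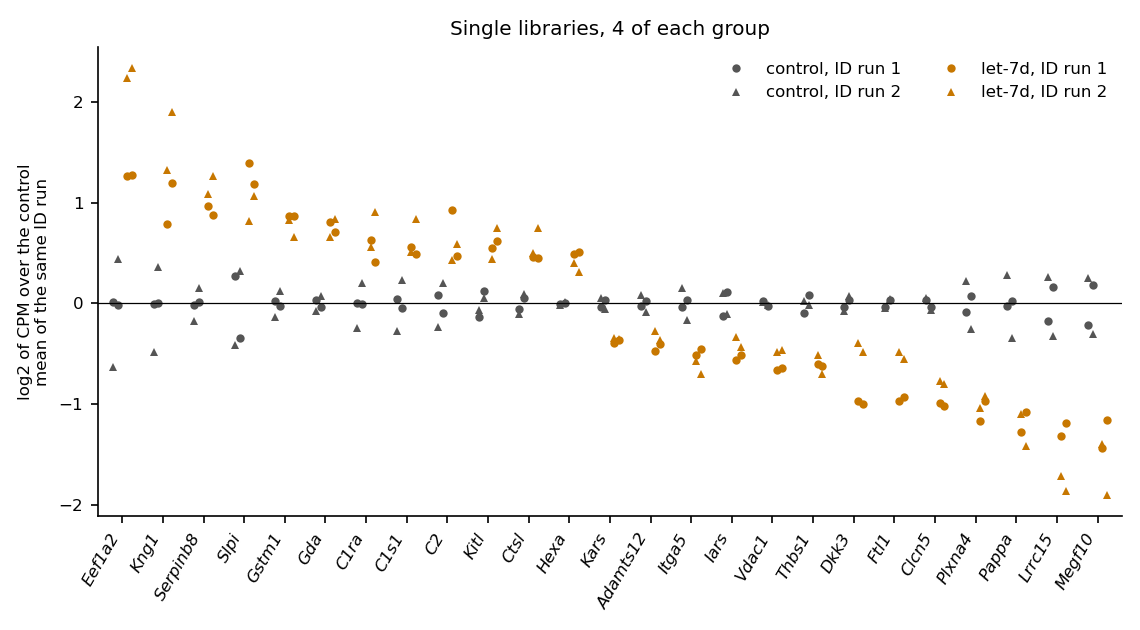
Each library of 25 named genes, as the log2 of its CPM over the control mean of its own ID run; grey marks are controls, orange marks let-7d, circles the first run (ID run 1) and triangles the second (ID run 2). In both runs the let-7d marks of every gene shown lie on one side of the controls of that run. All were called from these libraries, so this follows in part from the choice.

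Among genes that fell, 34.3% carried a seed site, against 17.0% of all. Of 13547 tested genes with an annotated 3′ UTR, 17.0% held at least 1 of the 3 site types and 3.75% an 8mer, with a median 3′ UTR of 1187 bases. Those that fell (1481, or 10.9%) held an 8mer in 8.37%, and their median 3′ UTR was longer, 1559 bases. Among those that rose (937, or 6.92%) 10.8% held a site and 1.92% an 8mer, with a median of 1174 bases. The share that fell was 8.65% of genes with no site, 20.7% with 1, 27.0% with 2 and 32.2% of the 87 genes with 3 or more, while the share that rose was 7.43%, 4.49%, 4.06% and 3.45%. Longer 3′ UTRs hold more sites, so the shares were also taken by length: in 3′ UTRs of up to 500 bases 28.2% of genes with a site fell and 6.36% of those without, and in 3′ UTRs over 4000 bases 16.7% and 11.4%. The site types differed little, with falls in 24.4% of genes with an 8mer, 21.9% with a 7mer-m8 at best and 20.9% with a 7mer-A1 alone. No site was found for 973 of the 1481 that fell, 65.7%. These shares are descriptions, since genes are not independent of each other.

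**Figure D3:**
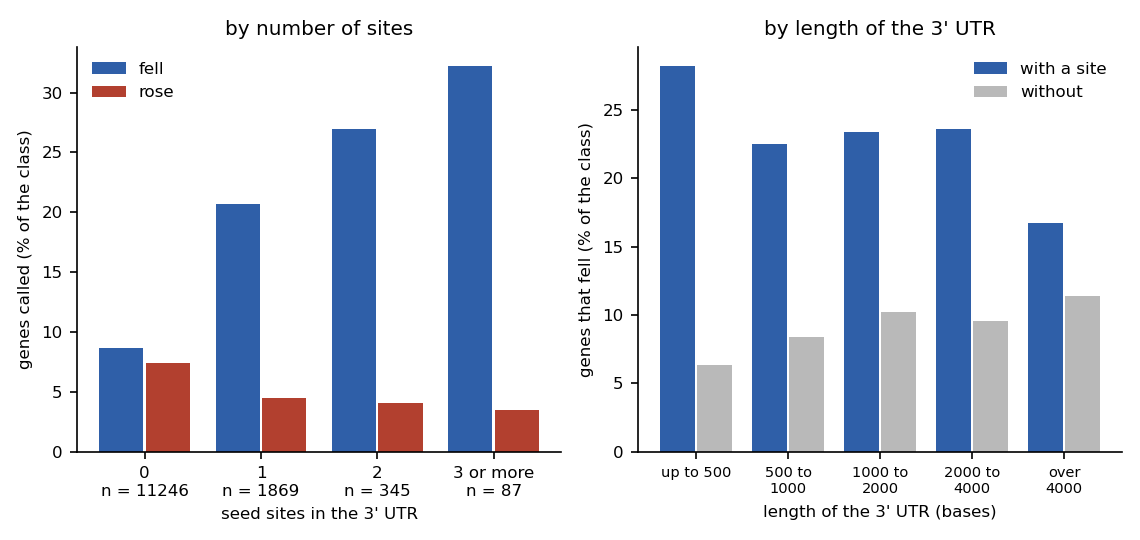
Left, the percentage of genes that fell (blue) or rose (red) by the number of let-7 seed sites in the 3′ UTR, with the number of genes in each class. Right, the percentage that fell with (blue) and without (grey) a site by length of the 3′ UTR in bases; at every length the blue bar is the higher, and the gap is smallest over 4000 bases.

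The 8mer sites of some genes named here are shown with the bases before them, 22 in all, in the direction of the message, with the match in capitals. The first 7 belong to genes that fell, the last 4 to genes that rose and hold the same match.
Clcn5: gtaaattgccctacCTACCTCA
Pappa: atacaactagttacCTACCTCA
Pcgf3: taaatattacctttCTACCTCA
Prkar2a: taagaattattgtgCTACCTCA
Bcat1: ctgggtatgggaaaCTACCTCA
Erlin2: tgttagctggtcccCTACCTCA
Qars: gaatacatgtggccCTACCTCA
Adamts15: aactaatgcacagtCTACCTCA
Slc10a6: cacacctgtgttacCTACCTCA
Ankrd55: accaaccacttcccCTACCTCA
Gaa: atcagcaaacctgtCTACCTCA
All lie in 3′ UTRs of the GRCm38 annotation, that of Clcn5 at chrX:7154061-7154082 (minus strand), of Pappa at chr4:65355984-65356005 (plus) and of Adamts15 at chr9:30901817-30901838 (minus). The 3′ UTR of Clcn5 is 5919 bases long and holds 6 sites, that of Pappa is 5784 bases long with 3, and that of Qars only 95 bases long with 1. Pcgf3, a Polycomb ring finger protein, was at 85.6, 87.8, 106 and 111 CPM in the controls and 65.1, 61.0, 71.9 and 77.2 CPM with let-7d, with no overlap (-0.50 ± 0.050, adjusted p = 1.31e-05). Prkar2a, a regulatory subunit of protein kinase A, changed by -0.59 ± 0.064, Bcat1, the cytosolic transaminase of branched-chain amino acids, by -0.62 ± 0.071 and Erlin2, a scaffold of endoplasmic reticulum degradation, by -0.37 ± 0.043. On the other side Adamts15, a matrix protease with 2 8mers, was at 55.3, 69.0, 30.1 and 23.1 CPM in the controls and 81.0, 91.4, 52.1 and 44.7 CPM with let-7d, above both controls in each run (0.67 ± 0.11, adjusted p = 0.000765). Slc10a6, a carrier of steroid sulfates, rose by 0.79 ± 0.12, Ankrd55, an ankyrin repeat protein, by 0.87 ± 0.14 and Gaa, the lysosomal acid glucosidase, by 0.43 ± 0.087.

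Some guidance receptors and integrins fell. These surface proteins tell cells where to grow and what to hold on to. Of 60 semaphorins, plexins, ephrins, slits and netrins and their receptors 2 rose and 16 fell (26.7%, against 9.81% of all genes), with a median log2 fold change of -0.11 (-0.13 in the first run and -0.056 in the second run), and 10 fell without let-7d replicate 2. Plxna4, a receptor of class 3 semaphorins (chromosome 6, 32144268 to 32588192), was at 74.8, 67.1, 18.2 and 25.3 CPM in the controls and 36.2, 31.6, 11.5 and 10.6 CPM with let-7d. Both let-7d libraries lay below both controls in each run (-1.03 ± 0.089, adjusted p = 5.53e-06); an antisense gene overlaps it and strand was not stated for the counts. Ephb6, an Eph receptor without kinase activity, changed by -0.59 ± 0.077 and the ephrin Efnb2 by -0.51 ± 0.066, while Sema3b, a secreted semaphorin, rose by 0.78 ± 0.11 and Rgma, a repulsive guidance molecule, by 0.39 ± 0.088. Of 36 integrins and focal adhesion genes (median -0.11) 2 rose (5.56%) and 11 fell (30.6%), against 6.41% and 9.81% of all genes. Without control replicate 4 the falls numbered 7 and without let-7d replicate 3 they numbered 6, and without control replicate 1 none rose. Itga5, the alpha chain of the fibronectin receptor (chromosome 15, 103344286 to 103366763), was at 736, 699, 427 and 533 CPM in the controls and 523, 502, 296 and 323 CPM with let-7d. Its groups overlapped over the whole and were apart in each run (-0.56 ± 0.071, adjusted p = 8.29e-05). The vitronectin receptor chains Itgav and Itgb3 changed by -0.42 ± 0.057 and -0.51 ± 0.063. Of 89 cadherins, protocadherins and immunoglobulin adhesion molecules 3 rose (5 without control replicate 1) and 9 fell, 10.1%, close to the share of all genes. Cdh3, P-cadherin, was at 47.4, 36.4, 45.7 and 49.0 CPM in the controls and 30.3, 24.2, 21.0 and 29.8 CPM with let-7d, with no overlap (-0.78 ± 0.11), and Pcdh7 changed by -0.34 ± 0.045, while Sdk1, a sidekick adhesion molecule of synapses, rose by 0.57 ± 0.087.

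Many ADAMTS proteases and some enzymes of matrix sugar chains fell. Of 13 ADAMTS proteases, which trim proteoglycans and procollagen, 1 rose (7.69%) and 9 fell (69.2%), against 6.41% and 9.81% of all genes. The median of the list was -0.32, and 7 of the 13 held a seed site in the 3′ UTR. The falls numbered 6 to 8 in the fits that left out 1 library and 6 under upper-quartile scaling. In a fit of the first run alone 5 fell, and in one of the second run alone 2. Adamts12 (chromosome 15, 11064790 to 11349231) was at 177, 172, 172 and 193 CPM in the controls and 132, 126, 142 and 151 CPM with let-7d, with no overlap (-0.38 ± 0.052, adjusted p = 0.000157). Adamts9 and the aggrecanase Adamts4 changed by -0.51 ± 0.071 and -0.41 ± 0.061, and both overlap other genes; the member that rose was Adamts15, given above. Of 48 enzymes of heparan sulfate, chondroitin sulfate and hyaluronan 4 rose (8.33%) and 15 fell (31.2%), against 6.41% and 9.81% of all genes. The median of this list was -0.15, with -0.19 in the first run and -0.072 in the second run. The hyaluronan synthase Has1 was at 3.77, 4.10, 3.91 and 4.87 CPM in the controls and 2.39, 2.13, 2.34 and 2.41 CPM with let-7d, with no overlap (-0.85 ± 0.13, adjusted p = 0.000534). Has2, another hyaluronan synthase, changed by -0.60 ± 0.082 and the chondroitin synthase Chsy3 by -0.84 ± 0.081, while Ext2, which extends heparan sulfate chains, rose by 0.22 ± 0.049. Without control replicate 1 or 3 the rises among these enzymes numbered 2. Their falls numbered 10 without let-7d replicate 2 and 11 under upper-quartile scaling. In a fit of the first run alone 15 fell, and in one of the second run alone 3. The smooth muscle markers, lower with let-7d in both runs (6 of 15 fell), moved with these lists and with the integrins, and their part was not tested.

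**Figure D4:**
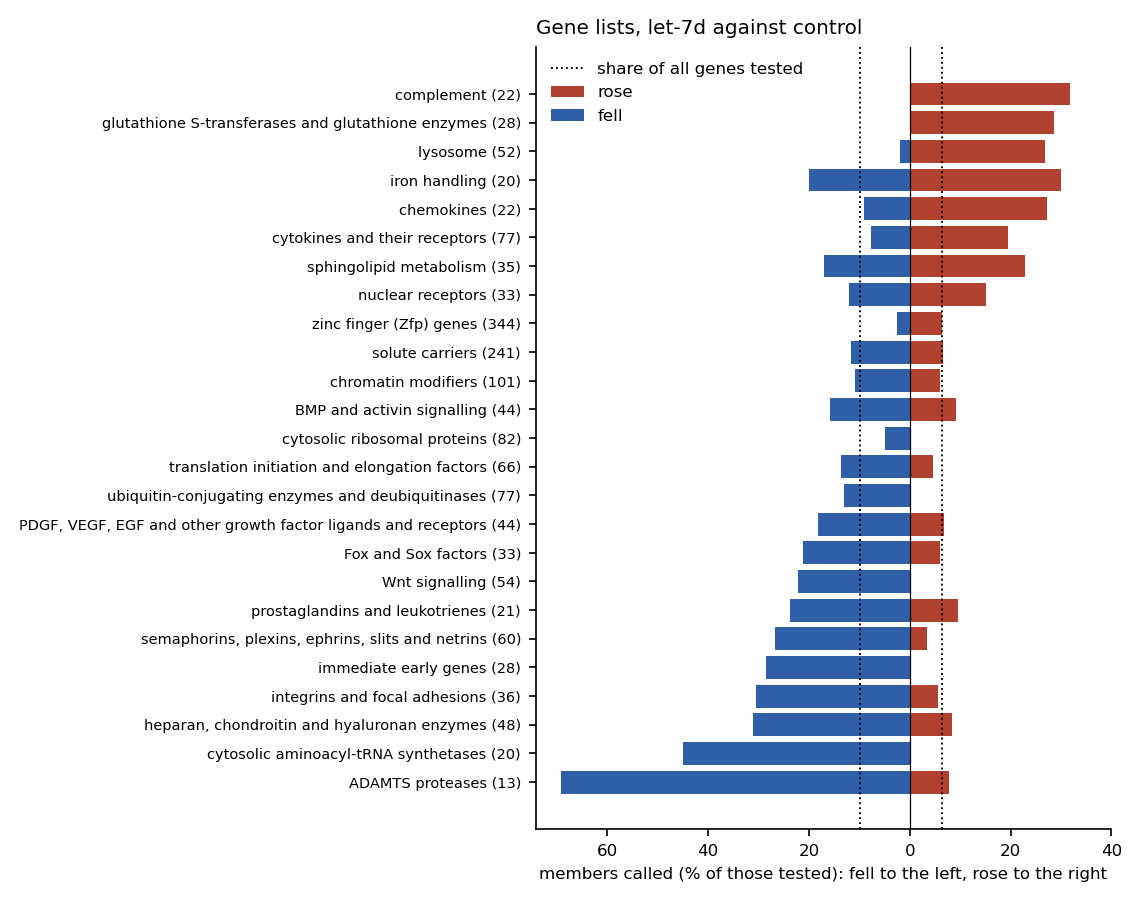
Percentage of the measured members of 25 gene lists that rose (red, to the right) or fell (blue, to the left) with let-7d, with the number measured after each name. Dotted lines mark the shares over all 15754 genes, 6.41% and 9.81%; complement has the longest red bar at 31.8% and ADAMTS proteases the longest blue bar at 69.2%.

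Several Wnt receptors and immediate early genes fell. Of 54 Wnt signalling genes (median -0.054) none rose, against 6.41% of all genes, and 12 fell (22.2%, against 9.81%). They were Dkk3, Ror2, Fzd4, Lgr4, Ror1, Fzd7, Fzd5, Rspo3, Lgr6, Fzd2, Tcf7l1 and Dkk2, so most are receptors at the surface. Dkk3, a secreted member of the Dickkopf family, was at 52.8, 50.6, 51.0 and 46.1 CPM in the controls and 26.0, 26.5, 34.8 and 37.0 CPM with let-7d, with no overlap (-0.69 ± 0.087, adjusted p = 8.17e-05). The receptors Ror2 and Fzd4 changed by -0.47 ± 0.073 and -0.32 ± 0.059. Their median was -0.12 in the first run, where 13 fell and none rose in a fit of that run alone, and 0.0084 in the second run, where 1 fell and 3 rose. At an unadjusted p under 0.05, 6 Wnt genes were higher and 16 lower, and DESeq2 called 14 and limma-voom 12 in all. Of 28 immediate early genes, which answer growth factors within minutes, none rose and 8 fell (28.6%), against 6.41% and 9.81% of all genes. The median of the list was -0.14, with -0.27 in the first run and 0.023 in the second run. In the second run alone none was called and in the first run alone 10 fell. Nr4a1, an orphan nuclear receptor, was at 13.6, 13.6, 10.9 and 10.7 CPM in the controls and 7.43, 7.44, 8.28 and 9.07 CPM with let-7d, with no overlap (-0.58 ± 0.13), and the serum response factor Srf changed by -0.39 ± 0.075, Klf2 by -0.44 ± 0.081 and Arc by -1.08 ± 0.20. Of 44 growth factor ligands and receptors 3 rose (6.82%) and 8 fell (18.2%), against 6.41% and 9.81% of all genes. The falls numbered 5 without control replicate 1, control replicate 4, let-7d replicate 2 or let-7d replicate 3.

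Ligands and receptors did not all move one way. Kitl, the ligand of the receptor KIT (chromosome 10, 100015630 to 100100416), was at 33.8, 28.2, 42.2 and 38.9 CPM in the controls and 47.7, 45.4, 67.9 and 55.2 CPM with let-7d, and every let-7d library exceeded every control (0.59 ± 0.069, adjusted p = 4.59e-05). Pdgfra, the growth factor receptor of fat cell precursors, went from 424 ± 34.7 to 526 ± 36.8 CPM (0.31 ± 0.052) with no overlap, and Fgf7 rose by 0.39 ± 0.079. Flt1, receptor 1 of vascular endothelial growth factor, was at 108, 106, 108 and 115 CPM in the controls and 72.8, 74.1, 79.8 and 85.0 CPM with let-7d, with no overlap (-0.49 ± 0.057). Ptn, pleiotrophin, changed by -1.06 ± 0.14 and Nrg1, neuregulin 1, by -0.94 ± 0.16. In FGF signalling 1 rose and 3 fell of 26, a share of falls (11.5%) near that of all genes. The falls were Dusp4, a phosphatase of MAP kinases (-0.33 ± 0.073), and the receptor tyrosine kinase inhibitors Spry1 and Spry2, which changed by -0.43 ± 0.088 and -0.35 ± 0.058. Errfi1, which blocks the epidermal growth factor receptor, changed by -0.48 ± 0.054. In BMP and activin signalling 4 rose (9.09%) and 7 fell (15.9%) of 44, against 6.41% and 9.81% of all genes. Among the falls were Gdf6 (-0.42 ± 0.062), the activin receptor Acvr2a (-0.31 ± 0.059) and the activin subunit Inhba (-0.41 ± 0.086). The falls numbered 4 without control replicate 3. The rises numbered 1 without let-7d replicate 4 and 2 in most other fits that left out 1 library. In Notch signalling 1 rose (3.03%) and 6 fell (18.2%) of 33, against 6.41% and 9.81% of all genes. Dtx2, a Deltex ubiquitin ligase with an 8mer, led the falls (-0.56 ± 0.059). The falls numbered 3 without control replicate 4 or let-7d replicate 1 and 2 without let-7d replicate 2.

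Several complement genes rose. Complement is a cascade of plasma proteases and their inhibitors, and fat cells and fibroblasts make several of its early components. Of 22 measured members 7 rose and none fell, 31.8% against 6.41% of all genes, and the median was 0.36 (0.20 in the first run and 0.62 in the second run); DESeq2 and limma-voom also called 7. C1ra and C1s1, the proteases of the first component, lie close together on chromosome 6 (124512405 to 124523443 and 124530345 to 124542359). C1ra was at 52.3, 52.5, 56.2 and 41.2 CPM in the controls and 69.9, 80.9, 91.2 and 71.9 CPM with let-7d, with no overlap (0.64 ± 0.10, adjusted p = 0.000484). C1s1 was at 129, 137, 219 and 155 CPM in the controls and 187, 196, 335 and 266 CPM with let-7d, above both controls in each run (0.61 ± 0.095, adjusted p = 0.000463). Both have near-identical copies in the mouse genome, so their counts may be shared. C2, the protease they cut, went from 27.0 ± 13.2 to 40.2 ± 16.3 CPM (0.60 ± 0.11), and its span overlaps Zbtb12. Serping1, which inhibits C1r and C1s, went from 660 ± 163 to 935 ± 267 CPM (0.49 ± 0.095), and C4b and Cfb also rose. Macrophages also make complement, and their part was not tested. In the first run, where 5 of the 18 macrophage markers fell and none rose, 8 complement genes rose and 3 fell in a fit of that run alone, and C1ra stood at 0.54 ± 0.086, C1s1 at 0.54 ± 0.062 and C2 at 0.75 ± 0.13.

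Cytokine, chemokine and prostaglandin genes changed in both directions. Of 77 cytokines and receptors (median 0.15) 15 rose (19.5%) and 6 fell (7.79%), against 6.41% and 9.81% of all genes. Il6st, the shared signalling chain gp130, went from 620 ± 76.4 to 767 ± 127 CPM (0.30 ± 0.051) and Il16, a T cell attractant, rose by 0.77 ± 0.13. Tnfrsf11b, the decoy receptor osteoprotegerin, was at 29.1, 22.7, 104 and 97.4 CPM in the controls and 17.7, 17.2, 59.5 and 68.4 CPM with let-7d, lower with let-7d in each run (-0.63 ± 0.084, adjusted p = 0.000123). Of 22 chemokines 6 rose (27.3%) and 2 fell (9.09%), against 6.41% and 9.81% of all genes. None fell without let-7d replicate 1, and 1 fell in most other fits that left out 1 library. Cxcl12, the stromal chemokine that holds progenitor cells, was at 288, 271, 419 and 411 CPM in the controls and 354, 344, 550 and 526 CPM with let-7d, higher in each run (0.35 ± 0.049), and Ccl8, an attractant of monocytes, rose by 1.02 ± 0.15 with 0.77 in the first run. The others that rose were Cxcl5, Cxcl14, Ccl9 and Ccl6. The summed macrophage markers were higher with let-7d in the second run (53.8 and 37.9 CPM against 187 and 84.2 CPM), and their part in the chemokine changes was not tested. Of 21 prostaglandin and leukotriene genes 2 rose (9.52%) and 5 fell (23.8%), against 6.41% and 9.81% of all genes. Ptgs1, cyclooxygenase 1, was at 54.1, 50.1, 57.1 and 67.4 CPM in the controls and 39.0, 40.2, 44.2 and 47.8 CPM with let-7d, with no overlap (-0.42 ± 0.058), and the inducible cyclooxygenase Ptgs2 changed by -0.54 ± 0.10 and the prostaglandin E receptor Ptger4 by -0.35 ± 0.077, while the prostacyclin receptor Ptgir rose by 0.36 ± 0.075. Of 30 interferon response genes none was called by edgeR, DESeq2 or limma-voom and 1 had an unadjusted p under 0.05. Their median was 0.46 in the first run, where 12 rose in a fit of that run alone, and -0.29 in the second run, where 7 fell.

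Several lysosomal and glutathione enzymes rose. Of 52 lysosomal genes 14 rose (26.9%, against 6.41% of all genes) and 1, Ctsa, fell (1.92%, against 9.81%). The median of the list was 0.10, with 0.12 in each run. The call of Ctsa was lost when control replicate 1 or 2 or let-7d replicate 1 or 2 was left out. Hexa, a hexosaminidase that degrades gangliosides (chromosome 9, 59539540 to 59565109), was at 123, 122, 114 and 112 CPM in the controls and 175, 172, 140 and 149 CPM with let-7d, with no overlap (0.43 ± 0.057, adjusted p = 0.000119). Ctsl, the protease cathepsin L (chromosome 13, 64359337 to 64370890), was at 482, 446, 960 and 836 CPM in the controls and 636, 640, 1513 and 1274 CPM with let-7d, higher in each run (0.55 ± 0.088, adjusted p = 0.000537), and its 3′ UTR holds 2 seed sites. Macrophages are rich in lysosomes, and their part was not tested; in the first run alone 12 lysosomal genes rose and 2 fell, and in the second run alone 11 rose and none fell. Of 28 glutathione enzymes (median 0.11) 8 rose (28.6%) and none fell, against 6.41% and 9.81% of all genes. Gstm1, a glutathione transferase (chromosome 3, 108012255 to 108017973), was at 31.7, 32.6, 44.5 and 37.1 CPM in the controls and 58.6, 58.7, 64.6 and 72.5 CPM with let-7d, with no overlap (0.80 ± 0.064, adjusted p = 4.60e-06). Gstt2 rose by 0.80 ± 0.093 and Gstm4 by 0.42 ± 0.082, and the others were Gsta3, Gpx3, Gsr, Gclc and Gclm; the Gstm genes are close copies of each other. The metallothionein Mt2, which binds zinc, was at 32.1, 42.6, 50.6 and 44.5 CPM in the controls and 47.2, 48.6, 133 and 99.2 CPM with let-7d, higher in each run (0.85 ± 0.18, adjusted p = 0.00383).

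Iron genes and sphingolipid receptors split. Of 20 iron handling genes 6 rose (30.0%) and 4 fell (20.0%), against 6.41% and 9.81% of all genes. The rises numbered 3 without control replicate 4 or let-7d replicate 2 and 2 without let-7d replicate 3. Ftl1, the light chain of ferritin (chromosome 7, 45457944 to 45459884), was at 1010, 960, 1224 and 1152 CPM in the controls and 517, 504, 810 and 851 CPM with let-7d, with no overlap (-0.74 ± 0.079, adjusted p = 2.37e-05). Fth1, the heavy chain, rose by 0.24 ± 0.057, so the chains of the same storage protein moved apart; both have many pseudogene copies, and the counting of shared reads is not stated. The iron exporter ferroportin, Slc40a1, was at 8.16, 8.14, 16.6 and 16.9 CPM in the controls and 5.44, 4.90, 9.45 and 9.87 CPM with let-7d, lower in each run (-0.74 ± 0.12). Of 35 sphingolipid genes 8 rose (22.9%) and 6 fell (17.1%), against 6.41% and 9.81% of all genes. Without control replicate 4 or let-7d replicate 3, 5 rose. Among receptors of sphingosine 1-phosphate S1pr3 was at 389, 394, 186 and 176 CPM in the controls and 277, 286, 104 and 120 CPM with let-7d (-0.58 ± 0.061, adjusted p = 2.37e-05) and S1pr2 changed by -0.37 ± 0.060, while S1pr1 rose by 0.40 ± 0.096. The alkaline ceramidase Acer2 changed by -0.73 ± 0.092, and Cerk, ceramide kinase, rose by 0.29 ± 0.067.

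Several transfer RNA synthetases fell, and the median of the ribosomal proteins had opposite signs in the runs. The 20 cytosolic aminoacyl-tRNA synthetases, which load amino acids onto tRNAs, had a median of -0.16 (-0.15 and -0.14 in the runs). None rose, against 6.41% of all genes, and 9 fell (45.0%, against 9.81%). They load lysine (Kars), isoleucine (Iars), glutamine (Qars), glycine (Gars), cysteine (Cars), methionine (Mars), tyrosine (Yars), alanine (Aars) and histidine (Hars). Kars (chromosome 8, 111993443 to 112011323) was at 135, 128, 182 and 197 CPM in the controls and 102, 100, 148 and 149 CPM with let-7d, lower in each run (-0.36 ± 0.047, adjusted p = 0.000102). Iars changed by -0.46 ± 0.063 and Qars by -0.30 ± 0.048, and 3 of the 20 hold a seed site. The count was 5 without control replicate 1, control replicate 4 or let-7d replicate 3, and 4 without control replicate 4 and let-7d replicate 3 together. Of 82 ribosomal proteins none rose and 4 fell (4.88%); their median was -0.19 in the first run and 0.08 in the second run, and the falls ranged from 1 (without let-7d replicate 4) to 9 (let-7d replicate 3 left out), with 2 without control replicate 1 or 3 or let-7d replicate 1 or 2. In a fit of the first run alone 29 ribosomal proteins fell and none rose, in one of the second run alone 1 fell and 1 rose, and 14 fell without control replicate 4 and let-7d replicate 3 together. A difference between the runs was not tested for this list. Of 66 translation factors 3 rose (4.55%) and 9 fell (13.6%, against 9.81% of all genes). Only 3 fell when control replicate 1 or let-7d replicate 1 was left out, 2 when let-7d replicate 2 was and 5 when let-7d replicate 3 was. Eif4e2, a cap-binding repressor, changed by -0.32 ± 0.057 and the poly(A) binding protein Pabpc4 by -0.39 ± 0.068, and the helicase Eif4a2 rose by 0.37 ± 0.063. Of 35 genes of mTOR and nutrient sensing 2 rose (5.71%) and 5 fell (14.3%), and of 49 proteasome genes 1 rose (2.04%) and 3 fell (6.12%). Leaving out single libraries lowered the mTOR falls to 3 and the rises of either list to none. Among the falls Rps6kb1 and Rps6kb2, the S6 kinases downstream of mTOR, changed by -0.32 ± 0.046 and -0.47 ± 0.080, and Psme4, an activator of the proteasome, by -0.43 ± 0.053.

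Chromatin genes and nuclear receptors moved both ways. Of 101 chromatin modifiers 6 rose and 11 fell, shares near those of all genes; the rises numbered 1 without let-7d replicate 2 and 3 without control replicate 1, and the falls 6 without control replicate 4 and 7 without control replicate 2. Cbx7, a Polycomb protein that reads methylated histone H3, was at 2.69, 4.31, 1.99 and 2.21 CPM in the controls and 6.44, 6.35, 3.82 and 4.85 CPM with let-7d, higher in each run (0.97 ± 0.15, adjusted p = 0.000503), and Apobec3 overlaps it. The remodelling ATPases Chd4 and Smarca4 changed by -0.31 ± 0.050 and -0.33 ± 0.057, and E2f6, a repressor that works with Polycomb, went from 52.3 ± 5.53 to 34.8 ± 7.74 CPM (-0.60 ± 0.066) with no overlap. Of 33 nuclear receptors 5 rose (15.2%) and 4 fell (12.1%), against 6.41% and 9.81% of all genes. Leaving out single libraries lowered these counts to 2 (rises without let-7d replicate 1, falls without control replicate 2, let-7d replicate 1 or let-7d replicate 3) or, for the rises, to 3 (without control replicate 1, 2 or 4 or let-7d replicate 2 or 4). Thra, a thyroid hormone receptor, was at 42.3, 47.6, 44.0 and 39.7 CPM in the controls and 52.8, 58.1, 54.5 and 56.0 CPM with let-7d, with no overlap (0.36 ± 0.057); Nr1d1 overlaps it. Rxra, the shared partner of many nuclear receptors, rose by 0.19 ± 0.047. Klf15, which answers glucocorticoids, was at 4.91, 4.94, 9.17 and 8.38 CPM in the controls and 9.29, 10.8, 11.6 and 13.5 CPM with let-7d, with no overlap (0.74 ± 0.14), while Tsc22d3, another glucocorticoid response gene, changed by -0.30 ± 0.052. Of 344 Zfp genes 22 rose (6.40%) and 9 fell (2.62%), but 8 rose when let-7d replicate 2 was left out, 11 without let-7d replicate 1 or 3 and 13 without control replicate 1 or 2, and 3 fell without control replicate 4, and 5 when let-7d replicate 3 was left out. Of 22 imprinted genes 2 rose (9.09%) and 4 fell (18.2%), against 6.41% and 9.81% of all genes. Peg10 stood at -0.62 ± 0.13 and Igf2r, the receptor that clears insulin-like growth factor 2, at -0.31 ± 0.068, and Rian rose by 0.32 ± 0.074. Of the noncoding RNAs Dio3os, annotated as a transcript of a bidirectional promoter, was at 3.49, 4.45, 5.94 and 5.77 CPM in the controls and 10.2, 8.21, 11.4 and 10.1 CPM with let-7d. Its groups did not overlap (1.02 ± 0.12, edgeR adjusted p = 3.50e-05).

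Carriers and channels fell at about the rate of all genes, and some changes were large. Of 241 solute carriers 16 rose (6.64%) and 28 fell (11.6%), against 6.41% and 9.81% of all genes. The nucleotide sugar carriers Slc35a4 and Slc35b4 changed by -0.43 ± 0.054 and -0.42 ± 0.053, while Slc35a3, which brings N-acetylglucosamine into the Golgi, rose by 0.37 ± 0.048 with no overlap. Of 40 potassium channels 1 rose (2.50%) and 4 fell (10.0%). Of 45 calcium, sodium and TRP channels 5 rose (11.1%) and 4 fell (8.89%). The rises in this last list numbered 2 without control replicate 1 and 3 without control replicate 2 or let-7d replicate 2. Piezo2, the channel of touch, was at 135, 118, 72.8 and 83.1 CPM in the controls and 65.6, 66.2, 45.5 and 51.8 CPM with let-7d, with no overlap (-0.81 ± 0.086, adjusted p = 2.37e-05). Cacna1g, a low-voltage calcium channel, changed by -0.51 ± 0.072, Orai3, a store-operated calcium channel, by -0.46 ± 0.068 and Kcnk6, a leak potassium channel, by -0.74 ± 0.16.

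The let-7e mimic shares the control libraries and the seed, so both changes against control are given side by side and the mimics were also compared with each other. Between them 24 genes were called (0.152%), 9 higher and 15 lower with let-7d; let-7e against control called 1496 genes (9.50%). P2rx4, a channel opened by ATP (chromosome 5, 122707544 to 122729738), stood at 0.18 ± 0.051 with let-7d and -1.02 ± 0.053 with let-7e, a difference of 1.20 ± 0.053 (adjusted p = 2.38e-09). Its call with let-7d against control was lost when control replicate 3 or 4 or let-7d replicate 2, 3 or 4 was left out. Vdac1 stood at -0.56 ± 0.049 and -0.23 ± 0.048 (difference -0.33 ± 0.049, adjusted p = 0.0153), Plxna4 at -1.03 ± 0.089 and -0.50 ± 0.085 (difference -0.52 ± 0.089, adjusted p = 0.0394) and Bcat1 at -0.62 ± 0.071 and -0.21 ± 0.071 (difference -0.41 ± 0.071, adjusted p = 0.0394). Ptgs1 stood at -0.42 ± 0.058 and -0.084 ± 0.057 (difference -0.34 ± 0.058, adjusted p = 0.0394). The collagen gene Col4a2, which lies against Col4a1, was the other way about, at -0.38 ± 0.079 and -0.99 ± 0.079 (difference 0.61 ± 0.079, adjusted p = 0.00472), and was chosen after its values were seen. For C1ra and C1s1, both not called with let-7e (0.29 ± 0.10 and 0.28 ± 0.095), the differences of 0.35 ± 0.099 and 0.33 ± 0.094 did not pass the test (adjusted p = 0.242 and 0.258).

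The let-7d effect differed between the ID runs for 38 genes (0.241%), 10 higher and 28 lower in the second run, and 15 of them were called overall. Itih5, a heavy chain that binds hyaluronan, was at 274, 337, 43.6 and 42.2 CPM in the controls and 209, 215, 14.1 and 15.7 CPM with let-7d. It was lower in each run, with log2 changes of -0.52 ± 0.085 and then -1.51 ± 0.10 (interaction adjusted p = 0.0150). Npnt, an integrin ligand of basement membranes, was at 44.3, 42.5, 28.3 and 28.8 CPM in the controls and 93.4, 96.1, 30.3 and 35.5 CPM with let-7d, log2 changes of 1.13 ± 0.064 and then 0.22 ± 0.095 (interaction adjusted p = 0.00631). Slc6a13, a carrier of GABA and taurine, stood at -0.80 ± 0.14 and -2.65 ± 0.34, and the aldehyde dehydrogenase Aldh3b2 at -0.52 ± 0.082 and -1.83 ± 0.18. Adipocyte markers differed in level between the runs, as given above. Of these 19 markers 3 rose and 1 fell in a fit of the first run alone (median 0.0018), and none rose and 7 fell in one of the second run alone (median -0.32), and their part in these differences was not tested.

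**Figure D5:**
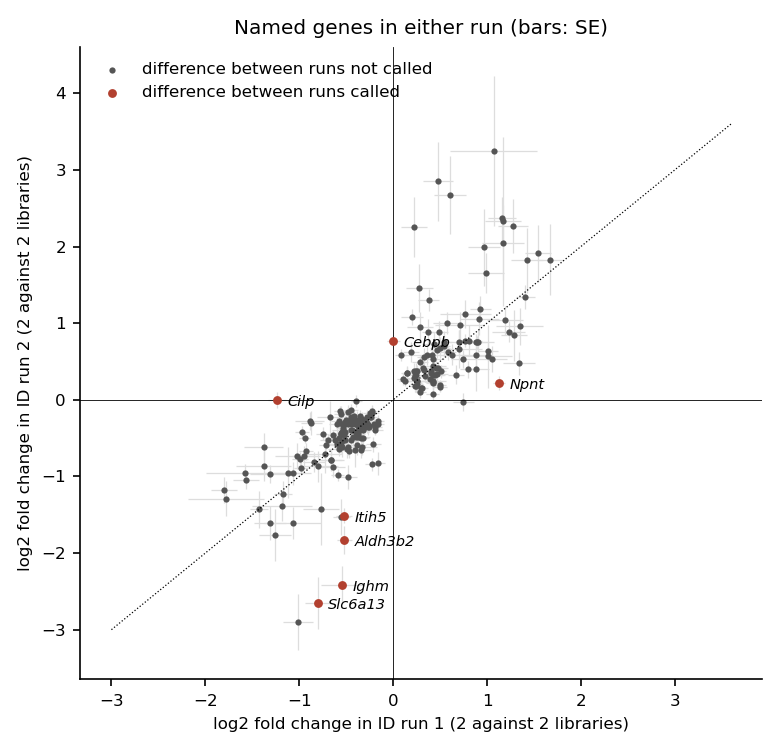
Log2 fold change of the 237 named genes within the first run (ID run 1, across) and the second (ID run 2, up), each from 2 let-7d against 2 control libraries, with SE bars and a dotted line of equal change. Red points are the 7 genes whose difference between runs was called. Most other points lie in the lower left or upper right, with the same sign in both runs. Nearly all genes shown were called over both runs, so this follows in part from the choice.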

How the data were processed

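Total RNA (1 µg per library) of 12 adipocyte samples was sequenced on an Illumina NovaSeq, per the labels. The deposited table holds raw counts per Ensembl gene, made by the authors with STAR on GRCm38.p6, per the submitters' processing notes; the read counter, its strand setting and the handling of shared reads are details not given in the sources used here. Genes of low CPM had been removed from the deposited counts, per the file name, and the highest CPM of the lowest gene left is 0.451. A second deposited table of normalized values was not used.

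Symbols, coordinates and 3′ UTRs (the protein-coding transcript with the longest) came from GENCODE vM21 (GRCm38), which matched 15736 of 15754 identifiers, and microRNA sequences from RefSeq. Seed sites were searched on the message strand only. The 12 libraries were scaled with TMM and fitted with edgeR 4.0.16 (glmQLFit and glmQLFTest, two-sided, R 4.3.3) with terms for group and ID run (8 residual degrees of freedom), p-values were adjusted after Benjamini and Hochberg over all 15754 genes, and genes with an adjusted p under 0.05 were called. Interaction and let-7d against let-7e were fitted likewise. Errors of fold changes are standard errors (SE), and CPM are raw counts over the TMM-scaled library size. On simulated counts for let-7d against control, 74.0% and 90.0% of 50 genes each changed by -1 and 1 on the log2 scale were recovered among 15754 tested, and 46.0% and 50.0% at -0.5 and 0.5. Far fewer genes were changed in the simulation than were called in the data, and its spread came from a fit without a group term. The rates therefore do not give the sensitivity of the real comparison. Alternatives were RLE and upper-quartile scaling, DESeq2 1.42.0, limma-voom (limma 3.58.1), the 8 libraries only, no run term, a replicate block, a stricter filter, each library left out and each run alone.

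The members and the 72 gene lists were chosen with earlier results of these data known. Named genes are the 15 largest rises and falls with every let-7d library on one side of its run's control mean and an average log2 CPM of at least 1, the 10 with the smallest p, the 10 most abundant, up to 3 each way per list, the member with the smallest p of a list with no call, 5 long noncoding RNAs, 5 called genes that differed between runs, and 10 fallen and 5 risen genes with an 8mer, predicted genes left out; the text gives part of these, and Col4a2, Derl3, Inpp5k and Cd68 (only in the plot of the runs) lie outside this. Counts of called list members are read against all genes, with no set test. Of 237 named genes 45 overlap another tested gene. Nothing says that replicates are separate animals or cultures, so the p-values cover only variation among these libraries, possibly technical. The labels list 4 libraries per group although the series' design text speaks of n = 6. No pair of libraries of a group agreed within counting noise (chi-square per degree of freedom 2.37 to 10.2).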

Additional observations from a re-analysis of the deposited data

Results flagged for a closer look

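Among 474 groups of 4 libraries of the named genes 8 held a library that stood apart from the other 3, where chance gives about 1 in 20. Each group spans both ID runs, which differ in level for many genes, and nearly all the genes were chosen as called. The count therefore cannot be read against that rate. In the controls the libraries that stood apart were Ephb6 at 20.8 CPM in replicate 4, Fmo5 at 6.40 CPM in replicate 2 and Kng1 at 2.13 CPM in replicate 4. With let-7d they were Akap12 at 231 CPM in replicate 4, Dhx58 at 38.5 CPM in replicate 2, Lcn2 at 34.8 CPM in replicate 3, Pcdhb5 at 4.08 CPM in replicate 3 and Wfdc17 at 2.53 CPM in replicate 4. Pcdhb5 lost its call without let-7d replicate 3, the library that stood apart, and without control replicate 4. Akap12, Ephb6, Fmo5, Kng1, Lcn2 and Wfdc17 were called in all 8 fits that left out 1 library, and Dhx58 was not called with all libraries.

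The let-7d effect differed between the ID runs, by the interaction test, for 7 named genes. The log2 fold change in ID run 2 minus that in ID run 1 was -1.31 for Aldh3b2, 0.76 for Cebpb, 1.23 for Cilp, -1.89 for Ighm, -1.0 for Itih5, -0.92 for Npnt and -1.86 for Slc6a13. Cebpb, a transcription factor of early fat cell differentiation, was at 202, 219, 105 and 93.0 CPM in the controls and 204, 215, 173 and 161 CPM with let-7d, so its groups were apart in ID run 2 and overlapped in ID run 1; its overall call was lost when any library of ID run 2 compared here was left out. Cilp, a cartilage matrix protein, was at 40.6, 34.1, 35.7 and 30.9 CPM in the controls and 16.1, 15.6, 35.6 and 30.1 CPM with let-7d and did the reverse; its overall call was lost without control replicate 1, 2 or 3 or let-7d replicate 1 or 2. The cause of these differences was not tested.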

How the results depend on the processing

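Against 1010 genes that rose and 1545 that fell, 642 rose and 1109 fell in the 8 libraries alone. Without a run term 2 rose and 5 fell, and in ID run 2 alone 305 rose and 454 fell. In ID run 1 alone, which held as many libraries as ID run 2, 983 rose and 1153 fell. The fit without a run term used all 12 libraries. The causes of these drops were not tested. Leaving out 1 library gave 661 (let-7d replicate 2) to 1044 risen and 1120 to 1491 fallen genes, and leaving out control replicate 4 and let-7d replicate 3, chosen after seeing the data, 714 and 1125. Genes that differed between runs numbered 38, or 24 with the 8 libraries. Replicate numbers were not taken to pair the samples: same-numbered libraries had correlations of deviations of -0.144 (control and let-7d), -0.185 (control and let-7e) and 0.013 (both mimics) in ID run 1, but 0.443, 0.144 and 0.185 in ID run 2. The replicate block gave 997 and 1533. Of 236 called named genes 235 were called under RLE, 233 under upper-quartile scaling, 231 by DESeq2 and 233 by limma-voom, and 207 in all 8 fits that left out 1 library. With the 8 libraries alone 220 of them were called, in ID run 1 alone 196, in ID run 2 alone 149 and without a run term 2. Dhx58, not called with all libraries (0.31 ± 0.14), stood at -0.028 ± 0.12 in ID run 2 alone. Precision is set by 4 libraries per group in 2 runs: the median SE was 0.085, so small changes of low genes may not have been detectable.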

Other observations

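Derl3, a factor that moves misfolded proteins out of the endoplasmic reticulum, and Inpp5k, a phosphatase of inositol lipids, rose with let-7d against control and differed between the mimics, and were chosen after their values were seen. Derl3 was at 6.75, 6.05, 1.5 and 1.47 CPM in the controls and 10.8, 12.6, 1.78 and 2.13 CPM with let-7d, above both controls in each run (0.71 ± 0.15), and stood at -0.11 ± 0.15 with let-7e (difference 0.81 ± 0.14, edgeR adjusted p = 0.0394). Inpp5k was at 18.1, 19.8, 18.3 and 19 CPM in the controls and 21.9, 22.2, 23.5 and 24.4 CPM with let-7d, with no overlap (0.30 ± 0.066), and stood at -0.26 ± 0.067 with let-7e (difference 0.55 ± 0.066, edgeR adjusted p = 0.00211). Olr1, the scavenger receptor of oxidised lipoproteins, has an 8mer and stood at -0.52 ± 0.096 with let-7d and 0.013 ± 0.091 with let-7e (difference -0.53 ± 0.095, edgeR adjusted p = 0.0394).

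Bc1, a short RNA of neurons and dendrites, was at 4.58, 5.36, 100 and 135 CPM in the controls and 1.86, 2.81, 81.8 and 58.5 CPM with let-7d, lower with let-7d in each run (-0.79 ± 0.15, edgeR adjusted p = 0.00236). Lockd, a noncoding RNA beside Cdkn1b, was at 3.87, 3.27, 8.23 and 6.30 CPM in the controls and 6.50, 6.72, 12.4 and 9.03 CPM with let-7d, higher in each run (0.69 ± 0.15, edgeR adjusted p = 0.00541).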
